A study of Mus musculus with 12 samples.

Results

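The genes described here are 50 genes that copy DNA and supply its building blocks, followed across vector control (VC) and Bub1-disrupted (Bub1KO) B16F10 cells without and after 8 Gy of ionizing radiation. They were picked by symbol, for their role, from the 55421 genes of the deposited tables. Each of the 50 was found under 1 identifier, and all 50 passed the filter on low values, with at least 210 reads in every library. B16F10 is a mouse melanoma line, and Bub1 encodes a spindle checkpoint kinase that the study disrupted with CRISPR-Cas9 to ask how its loss alters the response to radiotherapy. Total RNA depleted of ribosomal RNA was sequenced from 4 groups of 3 libraries: VC untreated, Bub1KO untreated, VC irradiated with 8 Gy and Bub1KO irradiated with 8 Gy. The labels give no time between irradiation and harvest, do not say whether the Bub1KO cells are a single clone, and name no separate cultures, so that p-values speak only of variation among these 12 libraries, some of it possibly technical.

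The libraries held 19380726 to 33087366 reads in genes. Bub1 itself stood at normalized counts of 2752, 3185 and 2859 in VC and 1834, 1565 and 1588 in Bub1KO without radiation, and 1484, 1461 and 1507 in VC and 886, 989 and 1119.8 in Bub1KO after 8 Gy. All Bub1KO libraries lay below all VC libraries of the same treatment, with means at 56.7% of the VC mean without radiation and 67.3% after it. All 10 melanocyte markers were present, with Dct the highest, and their summed level ran from 400794 to 417766 in untreated VC, from 557329 to 566270 in untreated Bub1KO, from 454016 to 470096 in irradiated VC and from 576269 to 601233 in irradiated Bub1KO. In the same order of groups, the 10 leukocyte markers summed to 36.5 to 38.1, 33.7 to 34.8, 200.6 to 231 and 317 to 329, with Cd68 the highest and Cd3e, Adgre1 and Nkg7 at 0 in all 12 libraries. The 10 fibroblast and endothelial markers summed to 178 to 362, and the 10 keratinocyte and epithelial markers to 57.2 to 134, with Krt1, Krt10 and Krt18 at 0. The part of these markers in the results was not tested. Untreated Bub1KO replicate 1 stood apart from its group: GC-rich genes were lower against GC-poor genes there (-0.74 on the log2 scale, against 0.03 and 0.07 in the other replicates). This balance also differed between treatments: the untreated VC libraries had -0.38 to -0.14 and the 6 irradiated ones 0.09 to 0.35, so values for GC-rich members are also given after removal of each library's GC trend.

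Replication starts when the origin recognition complex marks an origin and Cdc6 and Cdt1 load the MCM helicase there in G1, a step that geminin blocks once S phase has begun. Kinases then recruit Cdc45 and the GINS complex to switch the helicase on, and polymerases with the sliding clamp PCNA copy the opened strands from nucleotides that ribonucleotide reductase, thymidylate synthase and thymidine kinase supply. Many of these genes are targets of E2F transcription factors and are transcribed mainly in late G1 and S phase, so their summed RNA is widely read as a sign of cycling cells.

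RefSeq promoters (GRCm38.p6, 250 bases before to 50 after a start) were at hand for 41 of the 50 members. An E2F-type word (TTTCCCGC, TTTCGCGC, TTTGCCGC or TTTGGCGC, searched on both strands, with overlapping matches allowed) occurred in 16 of these 41, or 39.0%, against 2.61% of 27025 genes with promoters of the same length. The 16 were Cdc6, Cdt1, Clspn, Gins3, Lig1, Mcm3, Mcm5, Mcm6, Mcm7, Orc1, Orc3, Pola1, Pold1, Pold3, Pole2 and Rfc3. Of other words searched on both strands, CCAAT occurred in 24 of the 41 against 41.1% of all genes, and TTTGAA in 7 of the 41 against 20.2%. Promoters of 4 members are shown because Mcm5 and Mcm6 hold several matches and fell in both genotypes, while Cdt1 and Pold1 hold 1 match each and have the largest, uncalled, differences in radiation change between the genotypes. The capitals mark the E2F-type words on either strand.
Mcm5, chr8:75109259-75109558, plus strand: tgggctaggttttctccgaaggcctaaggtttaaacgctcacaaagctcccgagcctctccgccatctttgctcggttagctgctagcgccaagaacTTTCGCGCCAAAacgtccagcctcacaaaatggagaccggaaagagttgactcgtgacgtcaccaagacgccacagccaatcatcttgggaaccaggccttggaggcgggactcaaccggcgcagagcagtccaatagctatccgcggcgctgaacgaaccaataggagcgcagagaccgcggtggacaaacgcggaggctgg
Mcm6, chr1:128359656-128359955, minus strand: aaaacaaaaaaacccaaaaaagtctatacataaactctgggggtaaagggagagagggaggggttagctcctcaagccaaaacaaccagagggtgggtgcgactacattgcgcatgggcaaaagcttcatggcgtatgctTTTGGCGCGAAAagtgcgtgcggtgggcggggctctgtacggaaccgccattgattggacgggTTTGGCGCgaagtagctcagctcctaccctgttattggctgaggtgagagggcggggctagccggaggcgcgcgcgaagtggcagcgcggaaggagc
Cdt1, chr8:122567765-122568064, plus strand: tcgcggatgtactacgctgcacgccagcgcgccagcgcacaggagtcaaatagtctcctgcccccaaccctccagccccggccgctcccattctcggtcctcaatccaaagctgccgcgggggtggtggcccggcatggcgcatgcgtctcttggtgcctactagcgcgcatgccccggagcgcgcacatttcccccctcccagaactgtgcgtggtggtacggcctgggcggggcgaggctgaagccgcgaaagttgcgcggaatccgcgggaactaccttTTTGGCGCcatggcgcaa
Pold1, chr7:44548766-44549065, minus strand: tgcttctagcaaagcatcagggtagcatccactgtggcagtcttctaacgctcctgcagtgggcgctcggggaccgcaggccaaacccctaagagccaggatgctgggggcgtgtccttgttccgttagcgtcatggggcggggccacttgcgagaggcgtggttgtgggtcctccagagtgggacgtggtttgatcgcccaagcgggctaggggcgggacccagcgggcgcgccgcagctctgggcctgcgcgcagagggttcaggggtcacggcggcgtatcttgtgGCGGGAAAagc
In Mcm5 a forward word and a reverse word overlap, as a pair of words also do in Mcm6, which holds a further match downstream. The 16 members with a match had a median log2 change with radiation of -0.86 in VC and -0.99 in Bub1KO, and the 25 with a promoter and no match had -0.74 and -0.91. A match is only a run of letters in this window, and its use in these cells was not measured.

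Nearly all of these genes were lower after radiation in both genotypes. In VC, 46 of the 50 members fell and 0 rose, where 25.8% of all 14721 genes tested fell and 27.6% rose (limma on log2 of the value plus 1, adjusted p under 0.05). In Bub1KO, 48 fell and 0 rose, against 23.9% and 25.4% of all genes. The median member changed by -0.76 in VC and -0.96 in Bub1KO on the log2 scale, while the median of all genes was 0.02 and 0.03. The 4 members that did not pass in VC were Orc4, Cdt1, Gins2 and Pold1, and those that did not pass in Bub1KO were Orc4 and Gins2. In these bulk samples, fewer cells in S phase and less of these RNAs in each cell cannot be told apart.

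The share of all gene reads that fell on the 50 members shows the same shift in 1 number per library. It was 0.786%, 0.799% and 0.802% in untreated VC and 0.787%, 0.786% and 0.802% in untreated Bub1KO. After 8 Gy it was 0.498%, 0.488% and 0.493% in VC and 0.426%, 0.447% and 0.449% in Bub1KO. The untreated genotypes overlapped (exact permutation test, two-sided p = 0.8), all irradiated libraries lay below all untreated ones, and all irradiated Bub1KO libraries lay below all irradiated VC libraries. Each of these separations gave an exact permutation p of 0.1, the smallest that 3 libraries against 3 can give.

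**Figure D1:**
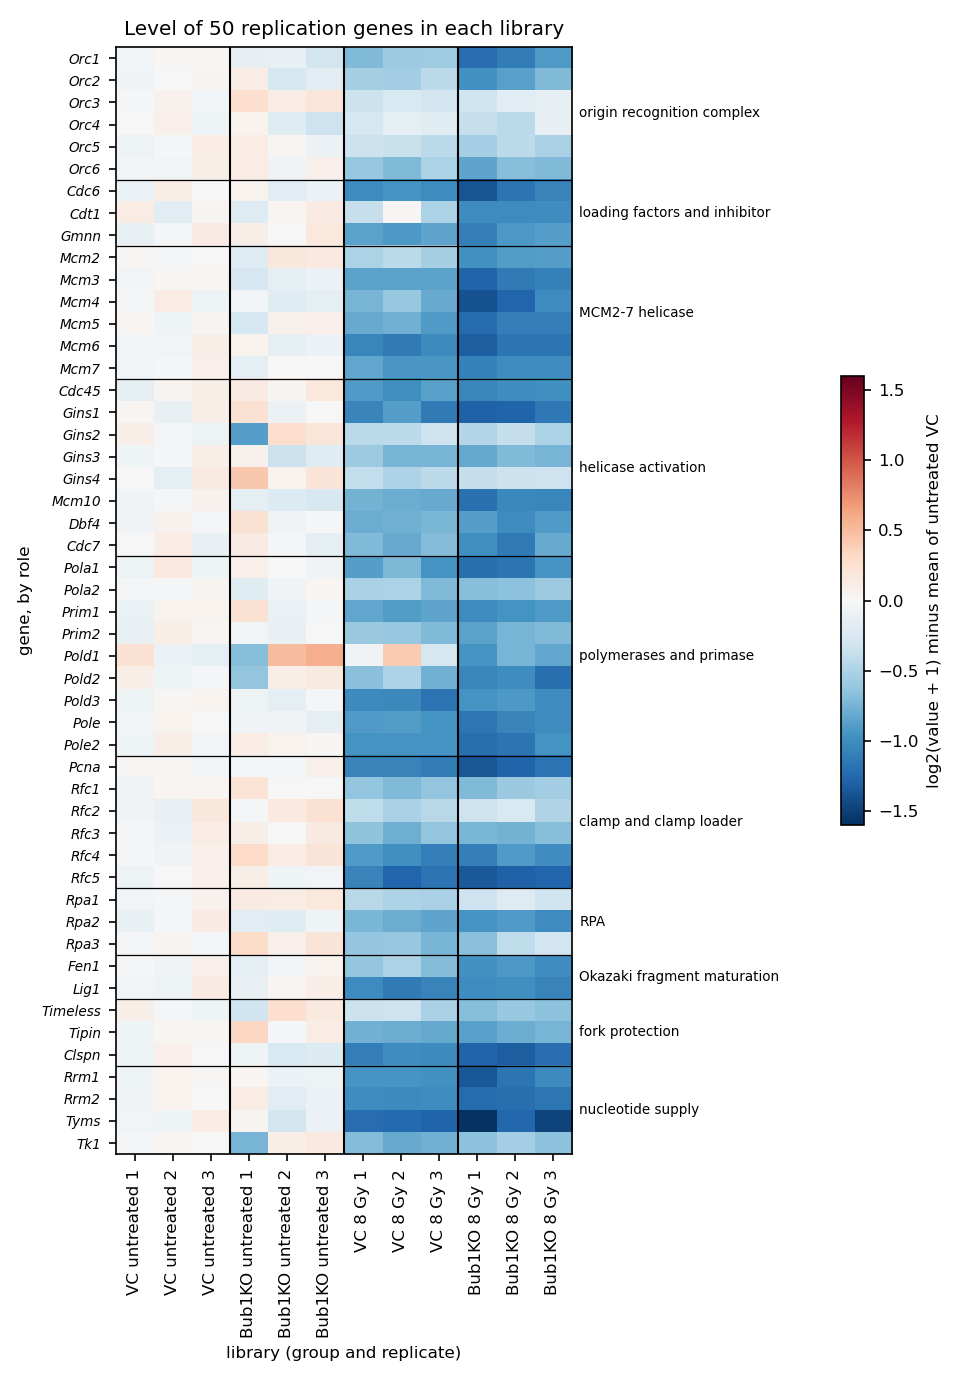
Level of the 50 replication genes (rows, grouped by role) in the 12 libraries (columns), as log2(value + 1) minus the mean of the 3 untreated VC libraries (colour scale, blue lower and red higher). The 6 irradiated columns are blue for nearly all genes, while Gins2, Pold1, Pold2 and Tk1 are blue in untreated Bub1KO replicate 1 but not in the other untreated libraries.

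Between the genotypes, no member passed without radiation and 19 passed after it. In untreated cells 0 of 50 were higher and 0 lower in Bub1KO, against 2.31% and 1.71% of all genes. There, 2 of 50 members had an unadjusted p under 0.05, as did 2817 of all 14721 genes. On the recovered reads edgeR and DESeq2 also called 0 members. After 8 Gy, 18 members were lower and 1, Rpa1, was higher in Bub1KO, against 16.4% and 14.3% of all genes. The median member differed by -0.15 after 8 Gy, with 41 of 50 negative, where the median of all genes was -0.01. The interaction of genotype and radiation, which asks whether the change with radiation differs between VC and Bub1KO, called 0 members higher and 0 lower, against 0.136% and 0.414% of all genes. In that test 6 of 50 members had an unadjusted p under 0.05, as did 1784 of all 14721 genes. Of the members, edgeR called 0 and DESeq2 called Cdt1 and Mcm2, both with the larger fall in Bub1KO. DESeq2 called 1.38% of the genes it tested with a negative interaction.

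Untreated Bub1KO replicate 1 bears on those counts. Without it, untreated Bub1KO had 4 members lower (Orc2, Orc4, Mcm10 and Clspn, at -0.23, -0.26, -0.24 and -0.23 log2) and Pold1 higher (0.54), while 8.4% of all genes were then lower and 10.2% higher. In the interaction 7 members then passed in limma, against 7.53% of all genes with a negative interaction, each with the larger fall in Bub1KO: Cdt1 (-0.79), Mcm2 (-0.59), Mcm5 (-0.38), Pold1 (-1.42), Pold2 (-0.56), Fen1 (-0.36) and Timeless (-0.45). With the GC trend removed and all 12 libraries kept, Mcm2 (-0.49), Pold1 (-0.77) and Fen1 (-0.35) passed, against 2.15% of all genes with a negative interaction. These counts rose over all genes as well as among the members. The part of the library's GC balance in these differences was not tested further.

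The origin recognition complex, the 6 proteins that mark origins, had the smallest median fall of the 10 role groups, with a median of -0.44 in VC and -0.62 in Bub1KO and 5 of 6 members called in each. Orc1, the largest subunit, was at normalized counts of 491, 513 and 512 in VC and 460.4, 466 and 412 in Bub1KO without radiation, and 308, 339 and 339 in VC and 217, 232 and 269 in Bub1KO after 8 Gy. Every irradiated library was below every untreated one, and the irradiated Bub1KO libraries were below the irradiated VC ones. The log2 change with radiation was -0.62 (SE 0.0982, limma adjusted p = 0.000137) in VC and -0.90 (SE 0.0982, limma adjusted p = 5.67e-06) in Bub1KO, and the difference between genotypes after 8 Gy was -0.46 (SE 0.103, limma adjusted p = 0.00457). Orc2, a core subunit, was also lower in irradiated Bub1KO, at a log2 difference of -0.34 (SE 0.0728, limma adjusted p = 0.00347). Orc6, which is needed for helicase loading, was at 2151, 2145 and 2365 in VC and 2399.7, 2135 and 2338 in Bub1KO without radiation, and 1451, 1361 and 1564 in VC and 1234, 1382 and 1359 in Bub1KO after 8 Gy. It changed by -0.61 (SE 0.0796, limma adjusted p = 2.85e-05) in VC and -0.79 (SE 0.0796, limma adjusted p = 2.83e-06) in Bub1KO, and the irradiated groups overlapped. Orc3 and Orc5, further core subunits, changed by -0.30 and -0.37 on the log2 scale in VC and by -0.40 and -0.51 in Bub1KO, all called lower, although neither VC call held once the GC trend was removed (-0.12 and -0.19). Orc4 changed by -0.21 (SE 0.103) in VC and -0.16 (SE 0.103) in Bub1KO and passed in neither, except in VC when only the 6 VC libraries were fitted. It was lower in irradiated Bub1KO without Bub1KO 8 Gy replicate 3 (-0.19).

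Of the loading factors, Cdc6, the ATPase that brings Cdt1 and the helicase to the origin, was at normalized counts of 1723, 1998 and 1848 in VC and 1925, 1628 and 1738 in Bub1KO without radiation, and 919, 963 and 921 in VC and 708, 821 and 887 in Bub1KO after 8 Gy. The irradiated libraries were far below the untreated ones, with a log2 change of -0.99 (SE 0.094, limma adjusted p = 1.67e-06) in VC and -1.13 (SE 0.094, limma adjusted p = 4.84e-07) in Bub1KO. All 3 irradiated Bub1KO libraries lay under the VC ones, but the difference of -0.22 (SE 0.0826) missed the threshold (limma adjusted p = 0.0586). It passed without Bub1KO 8 Gy replicate 3 (-0.29) and with the GC trend removed (-0.26).

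Cdt1, which escorts the MCM helicase onto DNA and is destroyed in S phase, differed in level between the irradiated genotypes. It was at normalized counts of 1637, 1345 and 1557 in VC and 1304, 1547 and 1648 in Bub1KO without radiation, and 1165, 1522 and 1062 in VC and 753, 750.3 and 759 in Bub1KO after 8 Gy. Irradiated Bub1KO libraries lay close together and below all others, whereas irradiated VC replicate 2 was within the untreated range. The log2 change with radiation was -0.29 (SE 0.125, limma adjusted p = 0.0674) in VC and -0.98 (SE 0.125, limma adjusted p = 2.24e-05) in Bub1KO. Between the irradiated genotypes Cdt1 differed by -0.71 (SE 0.105, limma adjusted p = 0.00032), the second largest difference of the set. The interaction was -0.70 (SE 0.177, limma adjusted p = 0.114). The VC fall passed without VC untreated replicate 2 (-0.37), without VC 8 Gy replicate 2 (-0.44) and with the GC trend removed (-0.74). With that trend removed, Cdt1 changed by -1.28 in Bub1KO and differed by -0.55 between the irradiated genotypes. Its interaction was then -0.54 (limma adjusted p = 0.058).

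Gmnn encodes geminin, the inhibitor of Cdt1. It stood at normalized counts of 1361, 1460.2 and 1609 in VC and 1573, 1468 and 1659.6 in Bub1KO without radiation, and 813, 779.7 and 822 in VC and 690.3, 782 and 798 in Bub1KO after 8 Gy. It fell in both genotypes, with log2 changes of -0.87 (SE 0.0849, limma adjusted p = 2.04e-06) in VC and -1.05 (SE 0.0849, limma adjusted p = 3.92e-07) in Bub1KO, and the irradiated genotypes overlapped (-0.09, SE 0.0748, limma adjusted p = 0.384).

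The 6 subunits of the MCM helicase, the motor that unwinds DNA at the fork, fell together. All 6 passed in each genotype, with medians of -0.84 in VC and -1.04 in Bub1KO, and 4 of the 6 were lower in irradiated Bub1KO than in irradiated VC. Mcm2 was at normalized counts of 12005, 11676 and 11959 in VC and 10329.7, 13500.1 and 13218 in Bub1KO without radiation, and 8355, 8908 and 8198 in VC and 6076, 6410.0 and 6469 in Bub1KO after 8 Gy. Its irradiated Bub1KO libraries were the lowest 3 of the 12 and did not overlap irradiated VC. The change with radiation was -0.49 (SE 0.0895, limma adjusted p = 0.00046) in VC and -0.96 (SE 0.0895, limma adjusted p = 1.43e-06) in Bub1KO, the difference after 8 Gy was -0.43 (SE 0.0554, limma adjusted p = 0.000125), and the interaction was -0.47 (SE 0.127, limma adjusted p = 0.133). Mcm5 was at 10039.9, 9354 and 10112 in VC and 8086, 10265 and 10368 in Bub1KO without radiation, and 5600.2, 5772 and 5258 in VC and 4201, 4615 and 4563 in Bub1KO after 8 Gy. It changed by -0.83 (SE 0.0906, limma adjusted p = 5.61e-06) in VC and -1.09 (SE 0.0906, limma adjusted p = 4.78e-07) in Bub1KO, with the irradiated groups separate at -0.31 (SE 0.0594, limma adjusted p = 0.00168). Mcm4 stood at 5620.4, 6206 and 5402 in VC and 5565, 4993 and 5129 in Bub1KO without radiation, and 3429, 3749.7 and 3289 in VC and 2188, 2374 and 2845 in Bub1KO after 8 Gy. No irradiated Bub1KO library reached the irradiated VC range, and the difference of -0.51 (SE 0.0861, limma adjusted p = 0.000797) was the third largest of the set. Mcm3 was likewise lower in irradiated Bub1KO, at a log2 difference of -0.31 (SE 0.0599). Mcm6 and Mcm7 fell with radiation, with log2 changes of -1.07 and -0.90 in VC and -1.16 and -0.98 in Bub1KO. Their differences between the irradiated genotypes, -0.15 (SE 0.0598) and -0.13 (SE 0.0543), passed only once the GC trend was removed (-0.18 and -0.18) among the alternatives run.

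**Figure D2:**
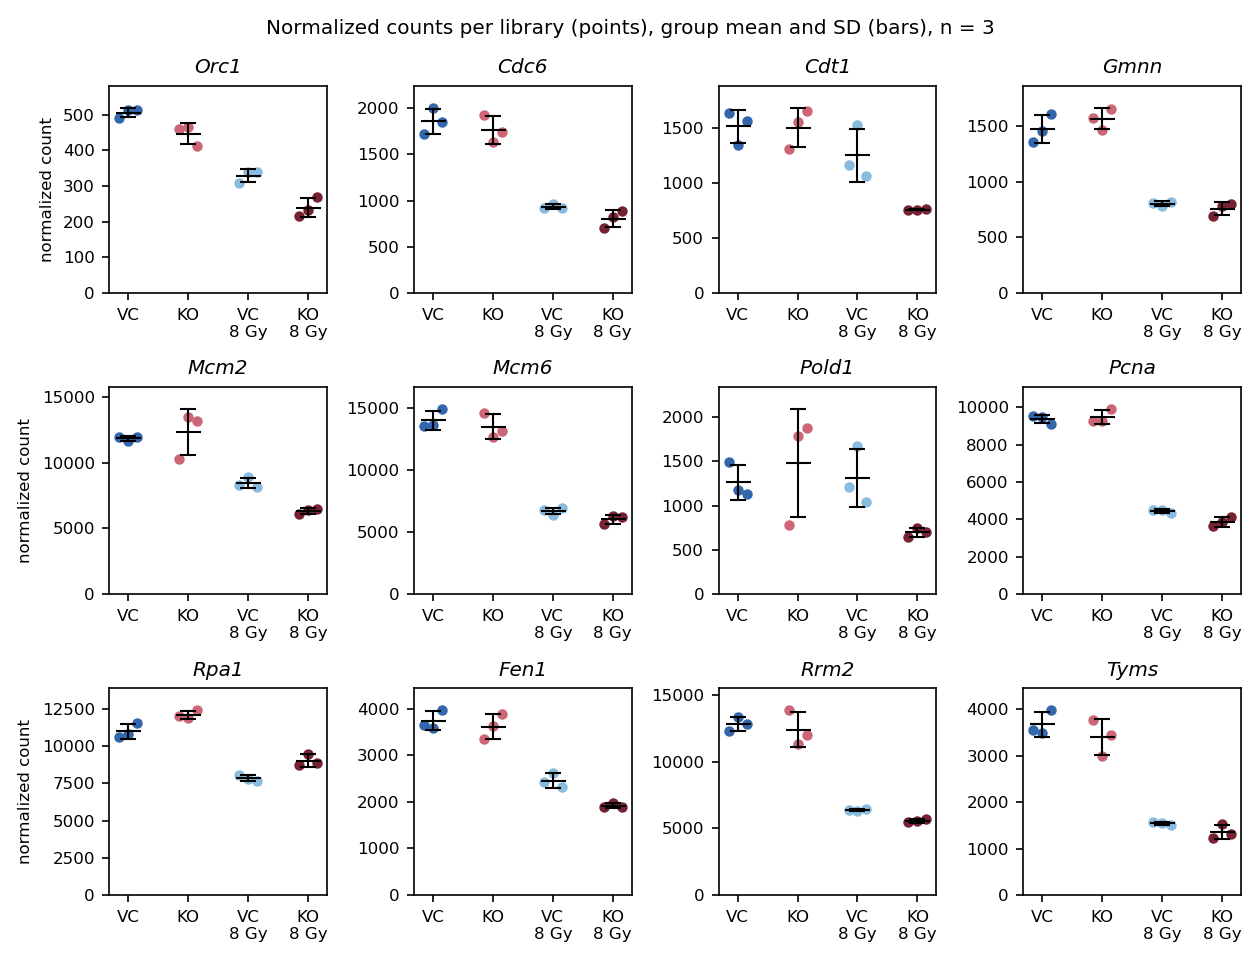
Normalized counts (vertical axes, starting at 0) of 12 members in each library (points), with the mean and SD (bars) of the 3 libraries of each group, where KO is Bub1KO. Tyms, Rrm2, Pcna and Mcm6 fall steeply in both genotypes, Mcm2, Fen1 and Cdt1 lie lower in irradiated Bub1KO, and untreated Bub1KO is widely spread for Pold1.

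Among the 8 genes that switch the helicase on, 7 fell in each genotype, with medians of -0.75 in VC and -0.92 in Bub1KO. Cdc45, which joins MCM and GINS into the active helicase, was at normalized counts of 2196, 2502 and 2578 in VC and 2645, 2487 and 2714 in Bub1KO without radiation, and 1294, 1222 and 1327 in VC and 1174, 1213 and 1221 in Bub1KO after 8 Gy. Its level was lower in all irradiated libraries, with log2 changes of -0.92 (SE 0.0744, limma adjusted p = 3.92e-07) in VC and -1.12 (SE 0.0744, limma adjusted p = 7.32e-08) in Bub1KO, with -0.09 (SE 0.0622) between the irradiated genotypes (limma adjusted p = 0.299). Of the GINS subunits, Gins1 fell in VC and Bub1KO (-1.02 and -1.29), as did Gins3 (-0.69 and -0.61) and Gins4 (-0.43 and -0.58). Gins1 was lower in irradiated Bub1KO only with the GC trend removed (-0.24) among the alternatives run. Gins2 was at 768, 693 and 673 in VC and 386, 859.6 and 809.8 in Bub1KO without radiation, and 525, 529 and 564 in VC and 511, 546 and 498 in Bub1KO after 8 Gy. Untreated Bub1KO replicate 1 was the lowest of all 12 libraries, and the change with radiation in Bub1KO was -0.32 (SE 0.216, limma adjusted p = 0.241) with it and -0.69 (limma adjusted p = 5.08e-06) without it. In VC, Gins2 changed by -0.40 (SE 0.216) and passed when only the 6 VC libraries were fitted. Gins2 also shares 2758 exon bases with Gse1 on the opposite strand, which averages 87.8% of its level.

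Mcm10, a factor that helps start unwinding, was lower in irradiated Bub1KO, at -0.30 (SE 0.0617, limma adjusted p = 0.00271). Among the alternatives run, it was also lower in untreated Bub1KO without untreated Bub1KO replicate 1 (-0.24) and with the GC trend removed (-0.21). Its interaction was not called. The kinase pair that fires origins fell too: Dbf4, the activator, changed by -0.77 on the log2 scale in VC and -0.98 in Bub1KO, and Cdc7, the kinase, changed by -0.74 in VC and -0.96 in Bub1KO. Dbf4 was lower in irradiated Bub1KO by a margin that passed narrowly (-0.17, SE 0.0594, limma adjusted p = 0.045), and Cdc7 did not pass there (-0.23, SE 0.0957), although it did without Bub1KO 8 Gy replicate 3 (-0.32) and with the GC trend removed (-0.24).

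Of 9 polymerase and primase genes, 8 fell in VC and 9 in Bub1KO, with medians of -0.85 and -0.98. Pola1, the catalytic subunit that extends RNA primers, was at normalized counts of 2048, 2411 and 2077 in VC and 2305, 2188 and 2090.3 in Bub1KO without radiation, and 1179.6, 1314 and 1119 in VC and 940.0, 969.7 and 1131 in Bub1KO after 8 Gy. Irradiated libraries were all below untreated ones, and the irradiated genotypes overlapped slightly, with Bub1KO replicate 3 above VC replicate 3. The change was -0.85 (SE 0.0939, limma adjusted p = 5.77e-06) in VC and -1.12 (SE 0.0939, limma adjusted p = 5.44e-07) in Bub1KO, with -0.25 (SE 0.0839, limma adjusted p = 0.0379) between the irradiated genotypes. Pole, the leading strand polymerase, was at 2245, 2419.9 and 2306 in VC and 2238, 2230.1 and 2105 in Bub1KO without radiation, and 1243, 1244 and 1195 in VC and 1039, 1115 and 1151 in Bub1KO after 8 Gy. It changed by -0.92 (SE 0.0668, limma adjusted p = 1.61e-07) in VC and -0.99 (SE 0.0668, limma adjusted p = 8.02e-08) in Bub1KO, and its genotype difference after 8 Gy, -0.16 (SE 0.0647), did not pass (limma adjusted p = 0.0837) but did without Bub1KO 8 Gy replicate 3 (-0.19) and with the GC trend removed (-0.20). Pole2, its accessory subunit, changed by -0.95 and -1.18 on the log2 scale in VC and Bub1KO, and the primase genes Prim1 and Prim2 with the polymerase alpha subunit Pola2 changed by -0.57 to -1.0 across both genotypes. The irradiated genotypes differed for Pole2 by -0.16 (SE 0.088), which passed only without Bub1KO 8 Gy replicate 3 (-0.24) among the alternatives run.

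Polymerase delta is the lagging strand enzyme. Pold1, its catalytic subunit, was at normalized counts of 1490.3, 1173 and 1130.2 in VC and 781, 1783 and 1879.7 in Bub1KO without radiation, and 1209.5, 1675 and 1041 in VC and 649, 751 and 702 in Bub1KO after 8 Gy. Irradiated VC spanned the untreated VC range, irradiated Bub1KO lay below every other library, and untreated Bub1KO replicate 1 lay far below the other untreated libraries. The log2 change was 0.03 (SE 0.266, limma adjusted p = 0.926) in VC and -0.98 (SE 0.266, limma adjusted p = 0.00749) in Bub1KO, and the difference between irradiated genotypes, -0.87 (SE 0.131, limma adjusted p = 0.000344), was the largest of the 50. Pold1 is the most GC-rich member (60.6% over its annotated transcripts), followed by Pold2 and Cdt1. With the GC trend removed its VC change turned to -0.56 (limma adjusted p = 0.000727), and its Bub1KO change to -1.33, while the difference after 8 Gy remained called at -0.63. Pold2, the second subunit, was at 1547, 1352 and 1411 in VC and 923, 1549.8 and 1586 in Bub1KO without radiation, and 898, 1015 and 839 in VC and 694, 719 and 619.8 in Bub1KO after 8 Gy. It changed by -0.65 (SE 0.164) in VC and -0.96 (SE 0.164) in Bub1KO, with the irradiated groups separate (-0.43, SE 0.0856, limma adjusted p = 0.00218). With the GC trend removed, Pold2 changed by -1.10 in VC and -1.26 in Bub1KO. The difference after 8 Gy was then -0.28, still called, and the interaction -0.15 (limma adjusted p = 0.327). Pold3, an accessory subunit, was at 1647, 1772 and 1818 in VC and 1653, 1582 and 1706 in Bub1KO without radiation, and 858, 851 and 769 in VC and 899, 925 and 869.8 in Bub1KO after 8 Gy. Its change of -1.08 (SE 0.0726, limma adjusted p = 8.31e-08) was among the largest falls in VC, against -0.87 (SE 0.0726, limma adjusted p = 4.89e-07) in Bub1KO, and irradiated Bub1KO lay above irradiated VC in all 3 libraries without passing the test (0.12, SE 0.0702, limma adjusted p = 0.209).

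**Figure D3:**
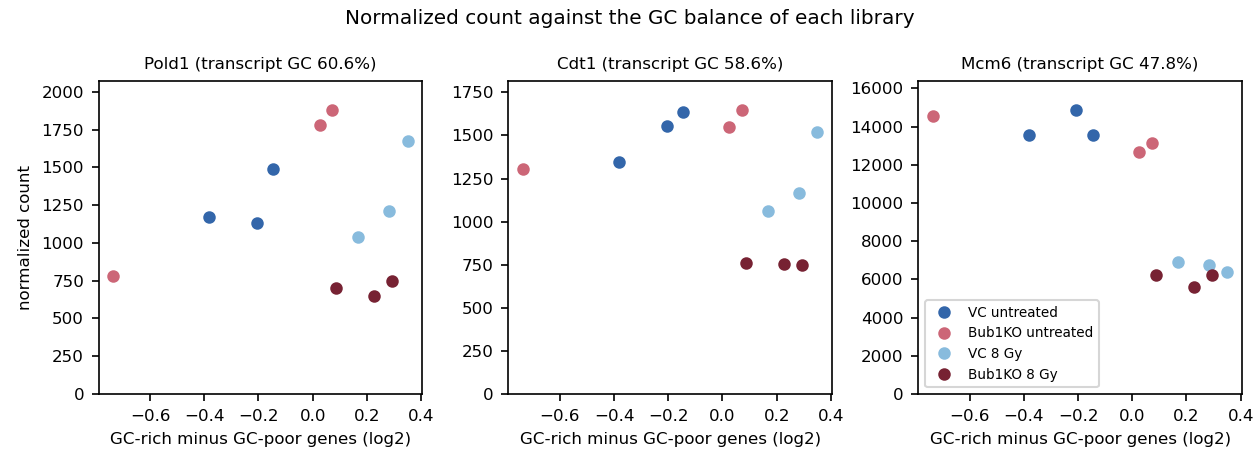
Normalized count of Pold1, Cdt1 and Mcm6 (vertical axes, starting at 0) against the GC balance of each library (horizontal axes), coloured by group. The balance is the median log2 deviation of GC-rich genes, each from its own mean over the 12 libraries, minus that of GC-poor genes. Pold1 runs from 781 in the library with the lowest balance to 1879.7 among untreated libraries, irradiated Bub1KO lies below irradiated VC at similar balance for Pold1 and Cdt1, and Mcm6 separates by treatment.

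PCNA, the ring that holds polymerases on DNA, and the clamp loader RFC that opens it all fell, 6 of 6 in each genotype. Pcna was at normalized counts of 9527, 9483 and 9106 in VC and 9258, 9264 and 9906 in Bub1KO without radiation, and 4509, 4477 and 4318 in VC and 3621, 3857 and 4126 in Bub1KO after 8 Gy. Every irradiated library was below every untreated one, and irradiated Bub1KO was below irradiated VC. The change was -1.08 (SE 0.065, limma adjusted p = 3.22e-08) in VC and -1.29 (SE 0.065, limma adjusted p = 6.23e-09) in Bub1KO, and the irradiated genotypes differed by -0.20 (SE 0.0596, limma adjusted p = 0.0226). Rfc5, a small loader subunit, was at 2274, 2422 and 2554 in VC and 2575, 2294 and 2349 in Bub1KO without radiation, and 1153, 1000.3 and 1068 in VC and 947, 981 and 1003 in Bub1KO after 8 Gy. Its levels after radiation were less than those of any untreated library, with changes of -1.17 (SE 0.0769, limma adjusted p = 6.79e-08) and -1.30 (SE 0.0769, limma adjusted p = 2.73e-08) that were the second largest in each genotype. Rfc3 was at 1841, 1765 and 2049 in VC and 2003, 1894 and 2076 in Bub1KO without radiation, and 1205, 1092 and 1214 in VC and 1133, 1109 and 1176 in Bub1KO after 8 Gy. It changed by -0.69 (SE 0.0765) in VC and -0.80 (SE 0.0765) in Bub1KO, with the irradiated genotypes overlapping (-0.04, SE 0.0665). Rfc4 changed by -1.0 on the log2 scale in VC and -1.21 in Bub1KO. Rfc1, the large subunit, and Rfc2 fell with smaller estimates, -0.66 and -0.46 in VC and -0.70 and -0.48 in Bub1KO. Between the irradiated genotypes none of the 5 RFC genes passed with all libraries, at -0.13 to 0.10. Rfc2 passed as higher without Bub1KO 8 Gy replicate 3 (0.17), and Rfc5 as lower with the GC trend removed (-0.19).

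RPA, the trimer that coats single-stranded DNA, fell in all 3 genes, with a median change of -0.66 in each genotype, and held the only member that was higher in irradiated Bub1KO. Rpa1, its large subunit, was at normalized counts of 10632, 10819.8 and 11579.6 in VC and 12008, 11908 and 12419.7 in Bub1KO without radiation, and 8055, 7819 and 7664 in VC and 8753, 9502 and 8849 in Bub1KO after 8 Gy. Irradiated libraries were below untreated ones, but irradiated Bub1KO was above irradiated VC in all 3 libraries. Untreated Bub1KO was also above untreated VC in all 3 libraries, without passing the test. The change was -0.49 (SE 0.0623, limma adjusted p = 2.25e-05) in VC and -0.42 (SE 0.0623, limma adjusted p = 7.85e-05) in Bub1KO, and the irradiated difference of 0.20 (SE 0.0546, limma adjusted p = 0.0133) was the single higher call. That call was lost without VC 8 Gy replicate 3 (0.19), without Bub1KO 8 Gy replicate 2 (0.17) and with no filter on low values. Rpa2 was at 2499.8, 2678 and 2977 in VC and 2392, 2365 and 2587 in Bub1KO without radiation, and 1627, 1560.3 and 1505 in VC and 1406, 1450.1 and 1348 in Bub1KO after 8 Gy. It changed by -0.79 (SE 0.0761, limma adjusted p = 1.76e-06) in VC and -0.80 (SE 0.0761, limma adjusted p = 1.59e-06) in Bub1KO, and its genotype difference after 8 Gy had the opposite sign to that of Rpa1 (-0.16, SE 0.0617, limma adjusted p = 0.0683) and passed with the GC trend removed (-0.21). Rpa3, the smallest subunit, changed by -0.66 on the log2 scale in each genotype and differed by 0.20 (SE 0.0878) between the irradiated groups, passing there without Bub1KO 8 Gy replicate 1 (0.30) and with quantile normalization (0.25).

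Fen1 and Lig1 act where lagging strand fragments are joined. Both fell in each genotype, and Fen1 passed between the irradiated genotypes while Lig1 did not; the 2 genes were not tested against each other. Fen1, the flap nuclease, was at normalized counts of 3659, 3591 and 3969 in VC and 3343, 3619.5 and 3888 in Bub1KO without radiation, and 2435, 2621 and 2318 in VC and 1901, 1975 and 1883 in Bub1KO after 8 Gy. The irradiated Bub1KO libraries were the lowest 3, and the irradiated groups did not overlap. The change was -0.61 (SE 0.0749, limma adjusted p = 1.67e-05) in VC and -0.91 (SE 0.0749, limma adjusted p = 4.51e-07) in Bub1KO, with -0.35 (SE 0.0617, limma adjusted p = 0.000924) between the irradiated genotypes. Lig1, the ligase that seals the nick, fell (-1.07 and -1.02) and to overlapping levels, with 0.06 (SE 0.0573) between the irradiated genotypes.

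Fork protection genes fell in both genotypes, 3 of 3. Clspn encodes claspin, the checkpoint mediator at the fork, and was at normalized counts of 2414, 2678 and 2538 in VC and 2423, 2139.6 and 2183 in Bub1KO without radiation, and 1182, 1273 and 1258 in VC and 1045, 1016 and 1090.3 in Bub1KO after 8 Gy. All irradiated libraries were lower than untreated ones, with irradiated Bub1KO the lowest. The change was -1.04 (SE 0.0726, limma adjusted p = 1.18e-07) in VC and -1.10 (SE 0.0726, limma adjusted p = 7.27e-08) in Bub1KO, and -0.24 (SE 0.0641, limma adjusted p = 0.0139) between the irradiated genotypes. Timeless, which couples helicase and polymerase, changed by -0.40 (SE 0.122) in VC and -0.68 (SE 0.122) in Bub1KO and was lower in irradiated Bub1KO (-0.24, SE 0.0722, limma adjusted p = 0.0218). The VC fall of Timeless did not pass without VC untreated replicate 1 (-0.35) or VC 8 Gy replicate 3 (-0.34). Tipin, its partner, changed by -0.79 in VC and -0.94 in Bub1KO and differed little between the irradiated genotypes (-0.01, SE 0.0588).

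Of the genes that supply nucleotides, all 4 fell in each genotype. Tyms, which makes thymidylate, was at normalized counts of 3547, 3496 and 3977 in VC and 3765, 2984 and 3447 in Bub1KO without radiation, and 1571, 1545 and 1514 in VC and 1224, 1531 and 1316 in Bub1KO after 8 Gy. Irradiated libraries were well below untreated ones in both genotypes, with the largest changes of the set: -1.25 (SE 0.0979, limma adjusted p = 3.03e-07) in VC and -1.32 (SE 0.0979, limma adjusted p = 1.77e-07) in Bub1KO. The irradiated genotypes overlapped only in that Bub1KO replicate 2 lay within the VC range, and the difference of -0.19 (SE 0.0777) passed without that library (-0.28) and with the GC trend removed (-0.23). Rrm2, the small subunit of ribonucleotide reductase that varies over the cell cycle, was at 12271, 13319.6 and 12806 in VC and 13844, 11337 and 11999.6 in Bub1KO without radiation, and 6401, 6308 and 6441 in VC and 5447, 5529 and 5730.1 in Bub1KO after 8 Gy. It changed by -1.0 (SE 0.074, limma adjusted p = 1.85e-07) in VC and -1.15 (SE 0.074, limma adjusted p = 5.76e-08) in Bub1KO, and irradiated Bub1KO lay below irradiated VC (-0.20, SE 0.0512, limma adjusted p = 0.0111). Rrm1, the large subunit, was at 11224, 12261 and 11939 in VC and 12027, 11029.7 and 11196 in Bub1KO without radiation, and 6112, 6146 and 6015 in VC and 4595, 5245 and 5847 in Bub1KO after 8 Gy. It changed by -0.95 (SE 0.0816, limma adjusted p = 6.37e-07) in VC and -1.13 (SE 0.0816, limma adjusted p = 1.39e-07) in Bub1KO, again with irradiated Bub1KO below irradiated VC (-0.23, SE 0.0745, limma adjusted p = 0.0341).

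Tk1, the S phase thymidine kinase, was at normalized counts of 5654, 5834 and 5697 in VC and 3406, 6165 and 6407 in Bub1KO without radiation, and 3555, 3285 and 3371 in VC and 3637, 3942 and 3625 in Bub1KO after 8 Gy. Untreated Bub1KO replicate 1 lay inside the irradiated range, and the other untreated libraries lay above it. The change was -0.75 (SE 0.171, limma adjusted p = 0.0022) in VC and -0.46 (SE 0.171, limma adjusted p = 0.0392) in Bub1KO. Without untreated Bub1KO replicate 1 the Bub1KO change was -0.75 (limma adjusted p = 6.85e-08). Leaving out any of the other 5 Bub1KO libraries ended the call, as did no filter, a fit of 6 libraries, TMM rescaling and quantile normalization, with leave-one-out values of -0.50 to -0.30. Between the irradiated genotypes Tk1 differed by 0.13 (SE 0.0584) without passing.

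**Figure D4:**
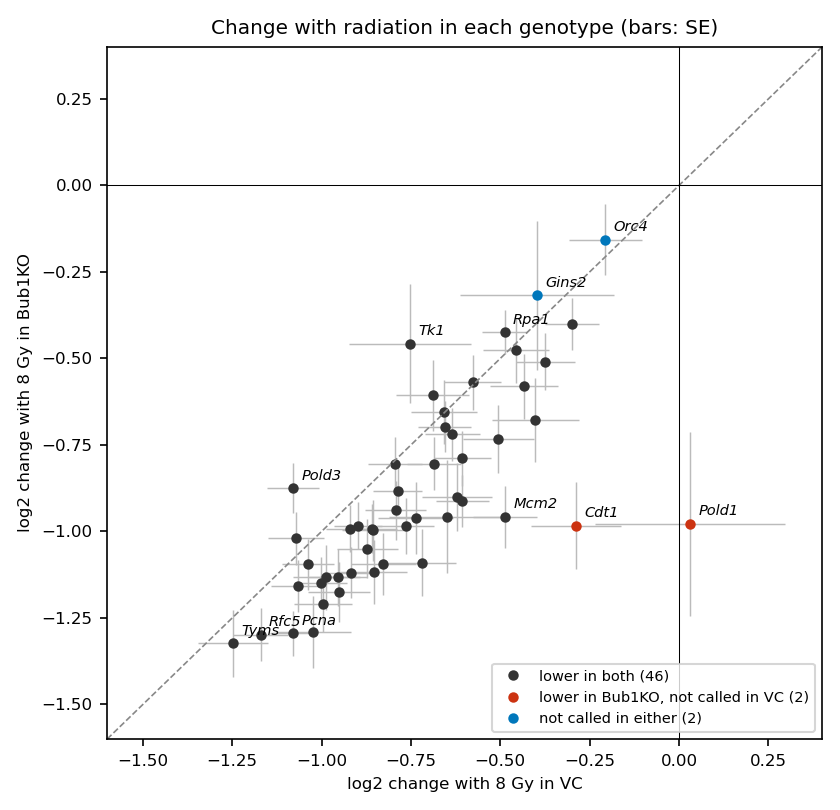
Log2 change with 8 Gy in VC (horizontal axis) and in Bub1KO (vertical axis) for the 50 members, with SE bars and a dashed line of equal change. Most points lie below the line and left of 0. Cdt1 and Pold1 (red) stand to the right, with -0.29 and 0.03 in VC and -0.98 in Bub1KO for each, and Tk1 and Pold3 lie above the line.

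The radiation changes in VC and Bub1KO rest on separate libraries and ranked the members alike (Spearman's rho 0.80 and Pearson's r 0.73 over 50 genes, which are measured in the same libraries and are not independent). Per kilobase of exon, Rrm2 was the most abundant member in untreated VC at 4619 normalized counts, followed by Pcna (3905), Mcm3 (3073) and Mcm6 (2999.9), and the lowest were Cdc7 (164), Orc1 (145) and Orc5 (134). The MCM subunits, which assemble in equal number, ranged per kilobase from 1600.1 for Mcm4 to 3073 for Mcm3 in untreated VC and from 688 to 1373 for the same genes in irradiated Bub1KO. The ORC genes lay lower, between 134 and 899 per kilobase in untreated VC.

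**Figure D5:**
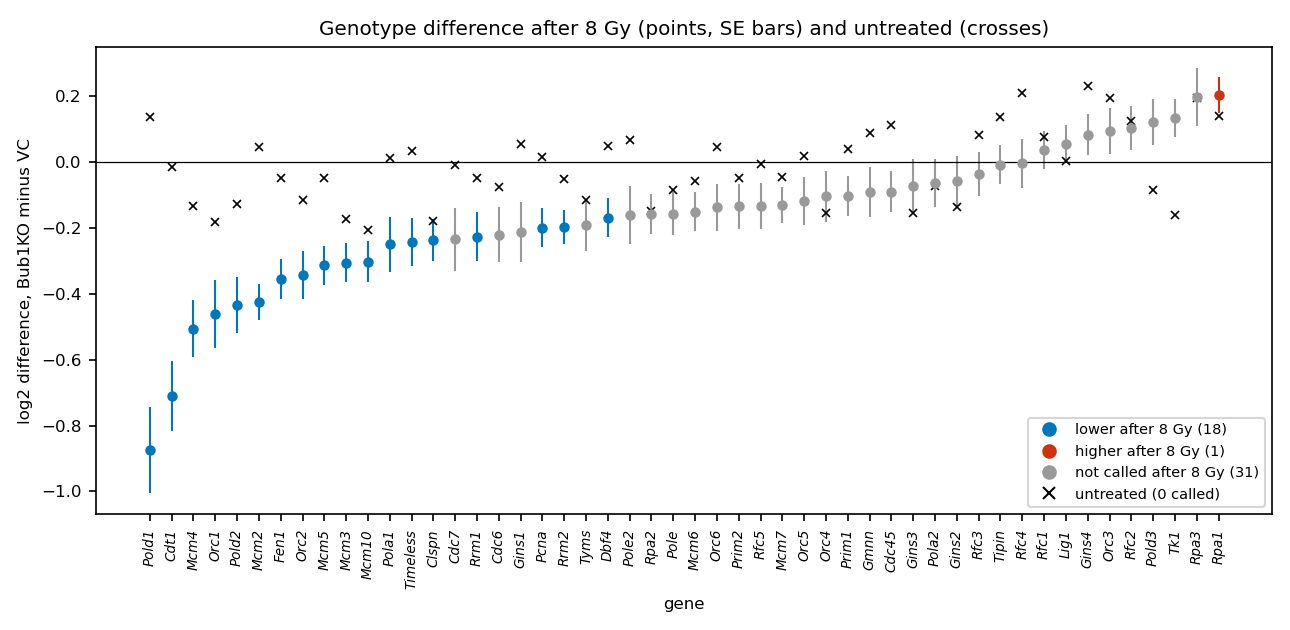
Log2 difference of Bub1KO minus VC for each of the 50 members after 8 Gy (points with SE bars, blue for lower, red for higher and grey for not called) and untreated (crosses), ordered by the difference after 8 Gy. The points run from -0.87 for Pold1 to 0.20 for Rpa1, and the crosses scatter on either side of 0.

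The 18 members lower in irradiated Bub1KO were Orc1, Orc2, Cdt1, Mcm2, Mcm3, Mcm4, Mcm5, Mcm10, Dbf4, Pola1, Pold1, Pold2, Pcna, Fen1, Timeless, Clspn, Rrm1 and Rrm2. Of these, Mcm2, Mcm3, Mcm5, Mcm10 and Fen1 passed under all 17 alternatives run. The largest differences, those of Pold1, Cdt1 and Mcm4, were lost only with no filter on low values (limma adjusted p = 0.0689, 0.0559 and 0.0728). Orc1 and Orc2 were lost only there too, and Pold2 there and with 12 libraries in the fit. Rrm2 was lost only with 12 libraries in the fit. Several of the smaller differences were no longer called when a single library was left out. The estimate did not always shrink, as for Rrm1 without VC 8 Gy replicate 3. Dbf4 was lost without any of VC 8 Gy replicates 1, 2 and 3 or Bub1KO 8 Gy replicate 2 (-0.18 to -0.13). It was also lost with no filter, 12 libraries in the fit, DESeq2, TMM rescaling, quantile normalization and a replicate block. Rrm1 was lost without any of the 3 irradiated VC libraries, or Bub1KO 8 Gy replicate 1 or 2 (-0.24 to -0.14). Pola1 and Pcna were lost without replicate 1 or 2 of either irradiated group (-0.26 to -0.19 and -0.20 to -0.15). Timeless was lost without VC 8 Gy replicate 1 or 2 or Bub1KO 8 Gy replicate 1 (-0.23 to -0.21), and Clspn without Bub1KO 8 Gy replicate 2 (-0.21). Rrm1, Pola1, Pcna and Timeless were also lost with no filter and with 12 libraries in the fit, and Pola1 with quantile normalization. With the GC trend removed, 27 members were lower and 1 higher, against 18.2% and 15.7% of all genes. With all 12 libraries in the fit 11 were lower and 1 higher, against 6.93% and 7.37%, and with no filter on low values 7 and 0, against 3.15% and 3.66%. In the authors' deposited table, 12 members were lower and 1 (Rpa1) higher in irradiated Bub1KO at an adjusted p under 0.05, and 1 (Mcm10) was lower in untreated Bub1KO. That table calls 18.1% of genes after 8 Gy and 13.1% without radiation, in either direction.

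Of 53 further genes of the pathway, in 3 lists, 52 were tested, 41 fell and 4 rose with radiation in VC, 43 fell and 3 rose in Bub1KO, and 19 were lower and 2 higher in irradiated Bub1KO than in irradiated VC (9 and 1 with no filter on low values). Over all genes tested, 25.8% fell and 27.6% rose in VC, 23.9% fell and 25.4% rose in Bub1KO, and 16.4% were lower and 14.3% higher in irradiated Bub1KO. In untreated cells 0 of the 52 passed, and 0 by edgeR and DESeq2. An unadjusted p under 0.05 was found for 8 of the 52, against 2817 of all 14721 genes. Some alternatives did call pathway genes there. Without untreated Bub1KO replicate 1, 7 were lower and 4 higher (8.4% and 10.2% of all genes). With the GC trend removed, 4 were lower and 2 higher (5.79% and 6.32% of all genes). With 12 libraries in the fit, 2 were lower and 2 higher (5.38% and 6.64%). With no filter 1 was higher, where 181 genes in all were higher, and with quantile normalization 1, where 318 were. By list, 18 of 23 tested replisome and firing factors fell in VC and 20 in Bub1KO, as did 11 and 10 of 16 nucleotide supply genes and 12 and 13 of 13 replication-coupled chromatin genes. Among the largest falls in VC were those of Dut, which removes dUTP (-1.29, SE 0.107, limma adjusted p = 4.95e-07), and the histone chaperone Nasp (-1.11, SE 0.0723, limma adjusted p = 6.24e-08). In Bub1KO the largest were those of Dut (-1.26, SE 0.107, limma adjusted p = 6.13e-07), Top2a, a topoisomerase (-1.23, SE 0.0841, limma adjusted p = 9.38e-08), and Donson, a replication fork factor (-1.19, SE 0.115, limma adjusted p = 1.89e-06). The median over the 52 was -0.66 in VC and -0.80 in Bub1KO.

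A few genes of these lists rose. Rrm2b, a p53-induced small subunit of ribonucleotide reductase, was at normalized counts of 419, 530.2 and 431 in VC and 463, 450.0 and 432 in Bub1KO without radiation, and 607, 723 and 674 in VC and 615, 543 and 597 in Bub1KO after 8 Gy. It rose in both genotypes, by 0.54 (SE 0.103, limma adjusted p = 0.000616) in VC and 0.38 (SE 0.103, limma adjusted p = 0.0073) in Bub1KO, opposite to Rrm2. Tk2, the mitochondrial thymidine kinase, was at 467, 459 and 489 in VC and 512, 512 and 501 in Bub1KO without radiation, and 669.8, 692 and 689 in VC and 919, 885 and 779 in Bub1KO after 8 Gy. It rose by 0.53 (SE 0.0788, limma adjusted p = 7.67e-05) in VC and 0.76 (SE 0.0788, limma adjusted p = 3.77e-06) in Bub1KO, opposite to Tk1, and was higher in irradiated Bub1KO (0.33, SE 0.0761, limma adjusted p = 0.00566). Pold4, the smallest polymerase delta subunit, was at 43.9, 45.1 and 22.7 in VC and 26.4, 65.8 and 75.8 in Bub1KO without radiation, and 154, 151 and 149 in VC and 186, 156 and 122 in Bub1KO after 8 Gy. It rose by 2.05 (SE 0.339, limma adjusted p = 0.000192) in VC and 1.56 (SE 0.339, limma adjusted p = 0.00174) in Bub1KO from a low level, opposite to Pold3. Rnaseh2c, a subunit of RNase H2, passed as higher in VC (0.86, SE 0.285, limma adjusted p = 0.0203), with -0.39 (SE 0.285, limma adjusted p = 0.272) in Bub1KO. Its VC call was lost without VC untreated replicate 2 (0.71) or 3 (0.85) and without VC 8 Gy replicate 2 (0.60). It was also lost with quantile normalization (0.56) and with the GC trend removed (0.41). In Bub1KO Rnaseh2c passed as lower without untreated Bub1KO replicate 1 (-0.76), with quantile normalization (-0.69) and with the GC trend removed (-0.69).

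Between the irradiated genotypes, the largest differences in these lists were in Cad, which starts pyrimidine synthesis, at 3349.8, 4217 and 3297 normalized counts in VC and 1655, 1767 and 2103 in Bub1KO. These groups did not overlap (-0.97, SE 0.0998, limma adjusted p = 1.89e-05). Rnaseh2c (-0.83, SE 0.183, limma adjusted p = 0.00437) and the nucleotide pyrophosphatase Dctpp1 (-0.66, SE 0.0881, limma adjusted p = 0.000155) followed. The Rnaseh2c difference did not pass with no filter on low values (limma adjusted p = 0.14) or with 12 libraries in the fit (limma adjusted p = 0.0678). The mitochondrial kinases Dguok (0.35, SE 0.0764, limma adjusted p = 0.00435) and Tk2 were the 2 that were higher in irradiated Bub1KO.

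The members the results turn on lie, in GRCm38 with the GENCODE annotation, at chr7:44532746-44548849 (Pold1, minus strand), chr8:122568015-122573554 (Cdt1, plus), chr6:88883474-88898780 (Mcm2, minus), chr19:10199132-10204169 (Fen1, minus), chr5:30058202-30073617 (Tyms, minus) and chr11:75298166-75348324 (Rpa1, minus), and the values count reads in their exons. Shared sequence limits some of them. Exons of 17 members overlap another gene, and in 10 of them (Cdc45, Fen1, Gins2, Lig1, Mcm7, Orc2, Orc4, Orc6, Rfc4 and Rfc5) the opposite-strand gene is at 5% or more of the member's mean level. That level is 529.8% for Rfc5 (Wsb2), 318.9% for Rfc4 (Eif4a2) and 287.6% for Orc6 (Vps35). It is 97.4% for Cdc45 (Ufd1), 77.2% for Orc2 (Nif3l1) and 59.8% for Fen1 (Tmem258). The exon bases shared in these 6 pairs run from 130 to 1150. The library kit keeps strand, but the strand setting of the counting is not given in the sources used here, so these members are uncertain to that extent. Pcna and Tyms have processed pseudogenes in the tables, Pcna-ps2 at a mean of 93.6 normalized counts against 6788 for Pcna, and Tyms-ps at 2.62 against 2493 for Tyms.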

How the data were processed

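Stranded total RNA libraries depleted of ribosomal RNA were made from B16F10 cells, per the labels' protocols. The submitters' processing notes name Trim Galore, cutadapt, STAR, SAMtools and HTSeq and the builds GRCm38.p6 and mm10. Versions, annotation release, strand setting and treatment of multimapped reads were not given in the sources used here. The authors deposited 2 tables of 55421 genes whose values are a normalized signal per gene, a count divided by 1 size factor per library. They also hold the authors' log2 fold changes and p-values with adjusted p-values, deposited for both genotype comparisons and used only where named. Dividing each library's values by the smallest step between them, the worth of 1 read, gave whole reads for 100% of values in every library (tolerance 0.01), on which edgeR and DESeq2 were run as alternatives.

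Tests were limma-trend (limma 3.58.1, R 4.3.3, edgeR 4.0.16, DESeq2 1.42.0) on log2(value + 1), kept for the 14721 genes that reached 10 in 3 or more of the 12 libraries, with Benjamini-Hochberg adjustment over all of them and a threshold of 0.05. The design had named edgeR for raw counts and limma for normalized values. The genotype comparisons used their own 6 libraries, and the radiation comparisons and the interaction all 12. Gene lengths, GC content and coordinates came from a GENCODE annotation of GRCm38, to which 55240 identifiers matched. The limma and edgeR tests were checked on simulated data with the same dispersion for all genes. Those data had no library standing apart and no GC trend, so the check does not cover these features of the real libraries.

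The 50 members, the pathway lists and the words searched in promoters were chosen with earlier results of these data known. Values in every library are given for Bub1, for 19 anchor genes, for the 3 members with the largest called change in each direction of a comparison and for some genes named after their values were seen (Gins2 and Pold2). The 3 called pathway genes with the largest change in each direction are named, except 1 that is not reported here. Changes are on the log2(value + 1) scale.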

Additional observations from a re-analysis of the deposited data

How the results depend on the processing

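The counts of members that fell with radiation stayed within 45 to 48 of 50 in VC and 47 to 49 in Bub1KO under every alternative. Between untreated genotypes 0 members passed, with 2 once the GC trend was removed (Mcm10 lower, Rpa3 higher) and 0 to 5 when single libraries were left out, 5 without untreated Bub1KO replicate 1. After 8 Gy 19 passed, with 7 without a filter on low values (30265 genes tested) and 12 with 12 libraries in the fit. There, 28 passed with the GC trend removed and 14 to 25 when single libraries were left out. The cause of the drop without a filter was not tested. In the interaction 0 passed, with 2 in DESeq2, 3 with the GC trend removed and 0 to 7 when single libraries were left out. Pold1 in VC, not called at 0.03, was called at -0.56 with the GC trend removed. The cause was not tested. No called member changed sign. Counts over all genes moved more: untreated 591 against 329 with no filter, 1769 with 12 libraries in the fit, 1783 with the GC trend removed and 172 to 2736 when single libraries were left out; after 8 Gy 4512 against 2062 with no filter and 2105 with 12 libraries; interaction 81 (20 higher, 61 lower) against 269 in DESeq2, 443 with the GC trend removed, 99 with quantile normalization (35 higher, 64 lower) and 33 to 1447. Replicate numbers did not pair the libraries: deviations of same-numbered libraries correlated at -0.193 to 0.196, over 0.1 in 1 of 18 pairs, and 2 of 12 libraries correlated best with their own number. With a replicate block 0, 18, 46, 48 and 0 members passed in the untreated, 8 Gy, VC, Bub1KO and interaction tests, and 312 and 47 genes in all in the untreated and interaction tests. The lowest count of any member in any library was 210 reads.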

Other observations

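The ratio of Cdt1 to its inhibitor Gmnn, chosen after the values were seen, was 1.20, 0.921 and 0.968 in untreated VC and 0.829, 1.05 and 0.993 in untreated Bub1KO. After 8 Gy it was 1.43, 1.95 and 1.29 in VC and 1.09, 0.960 and 0.951 in Bub1KO. The irradiated VC libraries lay above all others, and the irradiated Bub1KO libraries within the untreated range. Mean ratios were 1.56 and 1.0 in irradiated VC and Bub1KO (exact permutation test, two-sided p = 0.1, the smallest that 3 against 3 allows). Cdt1 is GC-rich, and the GC balance of the libraries differed between treatments. With the GC trend removed, Cdt1 and Gmnn changed by -0.74 and -0.79 with radiation in VC and by -1.28 and -1.0 in Bub1KO. On those values Cdt1 fell about as far as Gmnn in VC and further than Gmnn in Bub1KO, unlike the ratios above. The part of the GC balance in this ratio was not tested further.

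The ratio of Rpa1 to Rpa2, also chosen after the values were seen, was 3.89 to 4.25 in untreated VC, 4.80 to 5.04 in untreated Bub1KO, 4.95 to 5.09 in irradiated VC and 6.22 to 6.57 in irradiated Bub1KO. Within each treatment all Bub1KO libraries lay above all VC libraries.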
